A study of Mus musculus with 12 samples.

Results

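The plasminogen activator genes Plau and Plat, the receptor gene Plaur and the serpin inhibitor genes Serpine2 and Serpinb2 were followed in mouse neural progenitor cells (NPCs) in which the Srf pathway or β-actin had been manipulated. The pathway was selected on its array signals: Serpinb2 lay among the largest increases of Mkl1-labelled arrays over EGFP. All 5 genes of the set were measured, out of 21154 genes that could be named on the array. Each gene had 1 probe, printed as 1 spot, so no second probe could be set against it. None of the 5 spots carried an outlier flag or was saturated on any array.

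Urokinase (encoded by Plau) and tissue plasminogen activator (Plat) are serine proteases that cleave plasminogen into plasmin, which digests fibrin and other matrix proteins and activates latent growth factors and metalloproteinases. The receptor encoded by Plaur holds urokinase at the cell surface, where it also binds integrins. Protease nexin-1 (Serpine2) inhibits thrombin and both activators, and PAI-2 (Serpinb2) inhibits urokinase and also has intracellular forms. In the nervous system, tissue plasminogen activator and protease nexin-1 are known for their roles in migration, neurite growth and synaptic plasticity. Srf is a transcription factor that binds CArG boxes. Its coactivator Mkl1 is held in the cytoplasm by monomeric actin, so the supply of actin sets how much Mkl1 reaches the nucleus.

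The arrays comprised 6 groups of 2. NPCs had been differentiated in culture from mouse pluripotent cells, kept with EGF and bFGF, infected with a retrovirus and, per the study's methods, selected with puromycin. The methods name as NPCs both NSEB5-2C cells, derived from embryonic stem cells of line EB5, and N31 cells, derived from induced pluripotent cells and carrying doxycycline-inducible reprogramming factors, and which of them went on the arrays is not given in the sources used here. One arm carried a transgene for EGFP (the control), Mkl1 or Srf. The other arm expressed a short hairpin RNA, which targeted either EGFP (shEGFP, used as control) or, with 2 different sequences, the β-actin gene Actb (shActb_1 and shActb_2). The study calls its duplicate arrays of the Actb knockdown technical, and nothing places the other duplicates in separate cultures, so the tests weigh array-to-array error and not the spread between cultures. The 2 arrays of a group correlated at 0.994 to 0.998.

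Levels are log2 of the processed signal minus the 75th percentile of that array, so a level of 0 is the 75th percentile, and levels are compared between arrays for 1 gene at a time. Between 59.28% and 72.48% of probes were well above background on an array. The Actb probe fell by 0.53 with shActb_1 (adjusted p = 0.00128) and by 0.65 with shActb_2 (adjusted p = 0.000197). Both Srf probes went against the label on Srf-labelled arrays, where they were lower than with EGFP by a log2 change of -2.46 and -1.40. The group is therefore named by its label throughout. The probes of Mkl1, now named Mrtfa, differed from EGFP by 0.20 and 0.17 on Mkl1-labelled arrays. Acta2, the smooth muscle actin gene and a textbook target of Srf and Mkl1, was higher by 3.37 on Srf-labelled arrays, 6.93 on those labelled Mkl1, 4.42 with shActb_1 and 5.04 with shActb_2. Of 10 neural progenitor markers, 8 were well above background on all 12 arrays. By adjusted p under 0.05 and over 2-fold, with shActb_1 0 of 8 tested rose and 3 fell (37.5%, against 1.61% of all probes) and with shActb_2 1 rose and 2 fell (37.5%, against 6.31%). On Srf-labelled arrays 0 of 9 rose and 1 fell (11.1%, against 5.54%), and with Mkl1 1 was past 2-fold higher and 1 lower (22.2%, against 4.76%). The 1 that rose with shActb_2, Pax6, did so by a probe well above background on 0 shEGFP arrays.

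Promoter sequences were taken from RefSeq (GRCm38.p6) for the 3 members with an entry. Of these, Plaur and Serpinb2 were called higher with shActb_2, and on Srf-labelled arrays Serpine2 was called higher and Serpinb2 lower. Each runs 5′ to 3′ from 250 bases before the start site to 50 bases after it. Capitals mark TGANTCA (any base at N, a pattern wider than the usual site of AP-1 dimers), TATAAA and GGGCGG (the letters that Sp1 binds, adjoining copies running together).
Plaur (chr7:24462233-24462532, plus strand): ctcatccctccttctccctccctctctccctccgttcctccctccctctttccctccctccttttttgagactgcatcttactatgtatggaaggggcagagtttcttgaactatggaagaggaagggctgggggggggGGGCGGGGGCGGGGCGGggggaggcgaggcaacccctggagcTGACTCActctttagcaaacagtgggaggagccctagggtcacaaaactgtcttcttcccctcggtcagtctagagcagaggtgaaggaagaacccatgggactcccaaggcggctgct
Serpinb2 (chr1:107511173-107511472, plus strand): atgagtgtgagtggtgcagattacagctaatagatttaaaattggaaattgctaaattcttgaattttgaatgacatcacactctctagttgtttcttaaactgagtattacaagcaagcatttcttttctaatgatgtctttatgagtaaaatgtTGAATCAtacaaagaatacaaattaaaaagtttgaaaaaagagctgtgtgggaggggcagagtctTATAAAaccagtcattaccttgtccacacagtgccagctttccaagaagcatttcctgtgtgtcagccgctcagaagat
Serpine2 (chr1:79858616-79858915, minus strand): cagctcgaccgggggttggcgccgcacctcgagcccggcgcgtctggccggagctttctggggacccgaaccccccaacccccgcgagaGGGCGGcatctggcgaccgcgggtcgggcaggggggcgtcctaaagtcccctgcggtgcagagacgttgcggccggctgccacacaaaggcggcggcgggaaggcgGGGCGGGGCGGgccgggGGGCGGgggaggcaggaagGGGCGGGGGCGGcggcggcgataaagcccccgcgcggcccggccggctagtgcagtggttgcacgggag

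The Plaur window held TGACTCA at -69 from its start site and 3 copies of GGGCGG. The Serpinb2 window held TGAATCA at -94 and TATAAA at -29, and its GC content was 35.3%. RefSeq has another Serpinb2 start, not printed, from which the same letters lie at -181 and -116. The gene records of Plaur and Serpinb2 begin upstream of the windows shown. The Serpine2 window had a GC content of 77.7% and held 6 copies of GGGCGG, with neither TGANTCA nor TATAAA. Of 32851 promoter windows of this length, 7.81% held TGANTCA, 13.6% held TATAAA and 35.7% held GGGCGG, counted on both strands. The CArG box, TGACGTCA and GGAATG were in none of these 3 windows, against 1.63%, 1.79% and 14.7% of all windows. These matches describe letters only. Plau and Plat had no entry in the table.

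**Figure D1:**
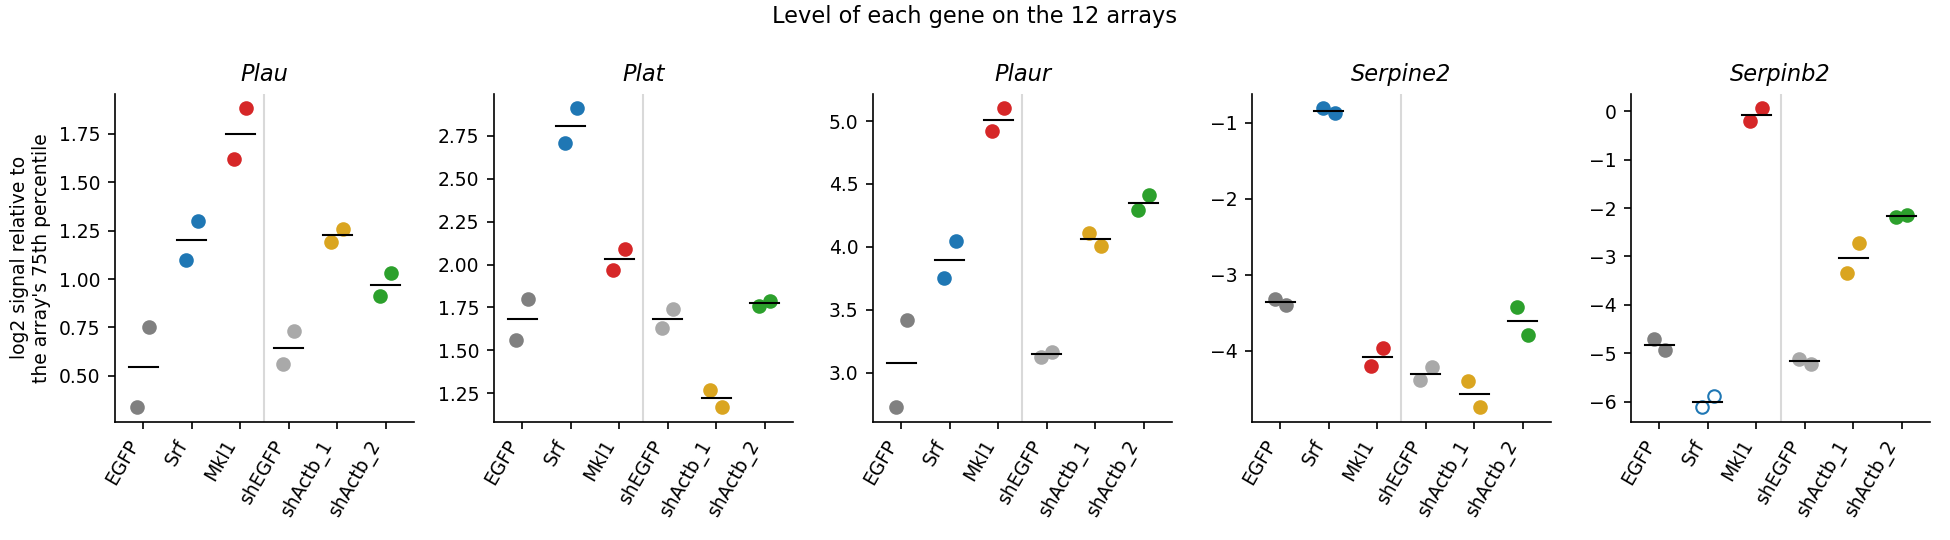
Level of each gene (log2 of the signal relative to the array's 75th percentile, own y axis per gene) on each array, in 6 groups of 2 arrays, with a bar at the group mean and open circles where the spot was not well above background. Serpinb2 spans -6.11 to 0.06 over the 12 arrays, and Serpine2 is highest on Srf-labelled arrays at -0.81 and -0.87.

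The contrast of the arrays labelled Mkl1 with EGFP served to pick the set, so its values are given as a description without a test. Serpinb2 was at -4.71 and -4.93 on the EGFP arrays and at -0.20 and 0.06 on the Mkl1 arrays, a difference of 4.74 or 26.8-fold (log2 3.24 after the normexp background correction). That was the eighth highest of 35769 probes in the contrast. Plaur stood at 2.73 and 3.42 with EGFP and at 4.92 and 5.10 with Mkl1, a difference of 1.93 or 3.82-fold. Its ligand gene Plau went from 0.34 and 0.75 to 1.62 and 1.88, a difference of 1.21 or 2.31-fold. For all of these, both Mkl1 arrays were above both EGFP arrays.

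The second activator, Plat, was at 1.56 and 1.80 with EGFP and at 1.97 and 2.09 with Mkl1, a difference of 0.35. Serpine2 was at -3.32 and -3.40 with EGFP and at -4.20 and -3.96 with Mkl1, a difference of -0.72 in the opposite direction to Serpinb2. Counted over the set, 3 of 5 genes were past 2-fold, all higher, beside 4.76% of all probes (1.72% higher, 3.04% lower), and nothing is read from this count because the contrast chose the set. The Srf comparison below uses the same 2 EGFP arrays as this one.

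On Srf-labelled arrays, both activators and the receptor were higher and the serpins moved apart. A gene counts as changed here if limma gave an adjusted p (Benjamini-Hochberg, over all probes tested) under 0.05 and the change exceeded 2-fold. By that rule 3 of 5 genes changed (Plat and Serpine2 higher, Serpinb2 lower), against 5.54% of all 35556 probes tested (3.29% higher, 2.25% lower). Serpinb2 entered the test through the EGFP arrays, where it is high, and its bound of at least 1.59-fold lower is under 2-fold. With normexp, with quantile normalization and with probes above background on all 12 arrays the count was 2. By adjusted p alone 5 of 5 changed, against 25.5%, a count that rests for Plau and Plaur on the arrays and probes fitted. Serpine2 was at -3.32 and -3.40 with EGFP and at -0.81 and -0.87 on Srf-labelled arrays. Both arrays labelled Srf were far above both controls and the change was 5.75-fold (log2 2.52 ± 0.16 SE, adjusted p = 5.82e-05; log2 1.80 after normexp), the 145th highest of the probes tested.

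Plat was at 2.71 and 2.91 on Srf-labelled arrays, above the 1.56 and 1.80 of EGFP, and rose 2.18-fold (log2 1.13 ± 0.10 SE, adjusted p = 0.000317). Plau reached 1.1 and 1.3 there, a 1.58-fold increase (log2 0.66, 95% interval 0.30 to 1.01, adjusted p = 0.0185). Plaur reached 3.75 and 4.05, a 1.77-fold increase (log2 0.82, 95% interval 0.34 to 1.31, adjusted p = 0.0256). With the arrays of this slide alone the adjusted p was 0.078 for Plau and 0.1 for Plaur, and with only the compared arrays 0.126 and 0.171. With no filter on dim probes it was 0.041 and 0.0523. Both calls by adjusted p alone were lost without EGFP replicate 1 (log2 0.45 and 0.48) and without Srf replicate 2 (0.55 and 0.67). That of Plaur was also lost without Srf replicate 1 (0.975). Neither the urokinase gene nor its receptor passed 2-fold, and the EGFP arrays lay apart for Plaur at 2.73 and 3.42. Without EGFP replicate 1 the Plaur change was 0.48, and without EGFP replicate 2 it was 1.17 and past both thresholds (adjusted p = 0.00223).

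Serpinb2 was at -6.11 and -5.89 on Srf-labelled arrays, below both EGFP arrays and not well above background on either. The fitted change was -1.19 (± 0.20 SE, adjusted p = 0.0045). Since the low side gives only a bound, Serpinb2 was at least 1.59-fold lower, taking for each array labelled Srf the higher of its own signal and the lowest signal among probes well above background. The call did not hold with the normexp background correction (log2 change -0.36, adjusted p = 0.0628) or with quantile normalization (-0.94, adjusted p = 0.0164, under 2-fold). The EGFP arrays lay in another row of the slide than the arrays labelled Srf and Mkl1, so row and transgene cannot be told apart.

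**Figure D2:**
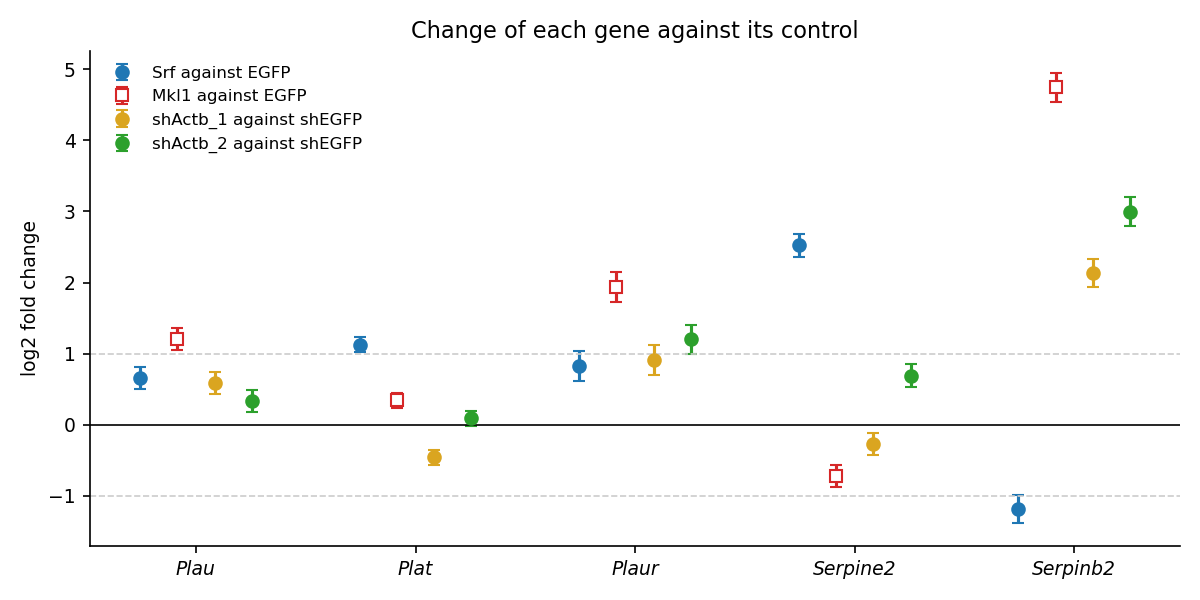
Log2 fold change of each gene against its control (EGFP for Srf and Mkl1, shEGFP for the hairpins), with bars of 1 SE from the limma fit, dashed lines at 2-fold and open squares for the Mkl1 contrast, which chose the set. Serpinb2 is the highest point with both hairpins at 2.14 and 3.00 and lies below 0 on Srf-labelled arrays at -1.19.

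With both Actb hairpins Serpinb2 rose, and it changed most among the 5 genes in both comparisons. It was at -5.11 and -5.22 with shEGFP, at -3.34 and -2.72 with shActb_1 and at -2.19 and -2.15 with shActb_2. All 4 knockdown arrays were above both controls. The increase was 4.4-fold with shActb_1 (log2 2.14 ± 0.20 SE, adjusted p = 0.00102), the 22nd highest of 36242 probes. It was 7.99-fold with shActb_2 (log2 3.00 ± 0.20 SE, adjusted p = 0.000103), the 28th highest of 36177 probes. The size depended on the background correction, with 1.06 and 1.71 after normexp, and the calls held. The 2 hairpin comparisons share the shEGFP arrays.

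Plaur was at 3.13 and 3.17 with shEGFP, at 4.11 and 4.01 with shActb_1 and at 4.29 and 4.41 with shActb_2. The receptor gene rose 2.3-fold with shActb_2 (log2 1.20 ± 0.21 SE, adjusted p = 0.00366). With shActb_1 it was 1.88-fold higher (log2 0.91, adjusted p = 0.0355), short of 2-fold. Plau was at 0.56 and 0.73 with shEGFP, at 1.19 and 1.26 with shActb_1 and at 0.91 and 1.03 with shActb_2. Its difference from shEGFP was 0.59 with shActb_1 (95% interval 0.23 to 0.94, adjusted p = 0.0561) and 0.33 with shActb_2 (95% interval -0.03 to 0.69, adjusted p = 0.124), and neither passed the test in this fit. With shActb_1 the adjusted p of Plau was under 0.05 after normexp (0.0344), with probes above background on all 12 arrays (0.0348), with trend and robust variance (0.0129), with the replicate block (0.0108) and without either EGFP array (0.0226), and up to 0.281 in the other settings. With shActb_2 it was under 0.05 with the replicate block (0.0253).

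Plat was lower than shEGFP on both shActb_1 arrays and slightly above it on both shActb_2 arrays. It was at 1.63 and 1.74 with shEGFP, at 1.27 and 1.17 with shActb_1 and at 1.76 and 1.79 with shActb_2. The difference was -0.46 with shActb_1 (adjusted p = 0.036, under 2-fold) and 0.09 with shActb_2 (95% interval -0.16 to 0.34, adjusted p = 0.517). Serpine2 was at -4.38 and -4.22 with shEGFP, at -4.40 and -4.74 with shActb_1 and at -3.42 and -3.79 with shActb_2. Its difference was -0.27 with shActb_1 (95% interval -0.64 to 0.10, adjusted p = 0.388) and 0.69 with shActb_2 (adjusted p = 0.0111, under 2-fold), the latter 0.22 after normexp (adjusted p = 0.119).

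Over the set, 1 of 5 genes changed with shActb_1, against 1.61% of probes (0.486% higher, 1.12% lower), and 2 of 5 with shActb_2, against 6.31% (1.73% higher, 4.58% lower). By adjusted p alone the counts were 3 of 5 with each hairpin, against 9.41% and 40.3% of probes. With shActb_2 the call of Serpine2 by adjusted p alone was lost with only the compared arrays (0.0516), without shEGFP replicate 1 (0.0744) and without shActb_2 replicate 1 (0.0574). With shActb_1 the calls of Plat and Plaur by adjusted p alone were lost with no filter on dim probes (0.0933 and 0.08). That of Plat was also lost with only the compared arrays (0.0786). Both were lost when any shEGFP, shActb_1, shActb_2 or Mkl1 array was left out, and that of Plaur when either array labelled Srf was. With single arrays left out the log2 change ran from -0.52 to -0.40 for Plat and from 0.86 to 0.96 for Plaur. Set directly against each other, the hairpins differed by over 2-fold in 0 of 5 genes, against 5.03% of probes (1.79% higher, 3.24% lower), and in 3 by adjusted p alone, against 32.1%. Those were Serpine2 (0.96 higher with shActb_2, adjusted p = 0.00412), Serpinb2 (0.86 higher, adjusted p = 0.0147) and Plat (0.55 higher, adjusted p = 0.00735). The Serpine2 difference was 0.34 after normexp (adjusted p = 0.0313). The Serpinb2 difference was 0.55 without shActb_1 replicate 1 (adjusted p = 0.0668), and its adjusted p was 0.0527 or 0.0821 without either shActb_2 array and 0.0789 with only the compared arrays. The adjusted p of Plat was 0.055 without shActb_2 replicate 2. For Plaur the difference was 0.29 (95% interval -0.20 to 0.77) and for Plau -0.26 (95% interval -0.61 to 0.10). The shEGFP and shActb_1 arrays shared a slide and a row, and the shActb_2 arrays were alone on another slide in another row. For shActb_2, slide, row and hairpin therefore cannot be told apart.

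The order of the 6 groups differed from gene to gene. Serpinb2 ran from the arrays labelled Srf through shEGFP, EGFP, shActb_1 and shActb_2 to Mkl1, with no overlap between neighbours. Plaur ran from EGFP and shEGFP, whose arrays overlapped, through the overlapping Srf and shActb_1 groups to shActb_2 and Mkl1. Plau also began with the overlapping control groups and ended with Mkl1, with shActb_2 next and then the overlapping Srf and shActb_1 groups. Plat was lowest with shActb_1 and highest on Srf-labelled arrays, and its EGFP arrays overlapped those of shEGFP and shActb_2. Serpine2 was highest on Srf-labelled arrays and lowest with shActb_1. Its controls differed, at -3.36 ± 0.06 (SD, n = 2) with EGFP and -4.30 ± 0.12 with shEGFP, on different slides, so the shActb_2 mean of -3.60 lay between them.

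Over the 12 arrays the profiles of the genes were alike to different degrees. Pearson's r was 0.92 for Plau with Plaur, 0.81 for Plaur with Serpinb2 and 0.89 for Plat with Serpine2. It was 0.66 for Plau with Serpinb2, -0.28 for Plat with Serpinb2 and -0.54 for Serpine2 with Serpinb2. The other pairs were at 0.29 for Plau with Plat, 0.19 for Plat with Plaur, 0.02 for Plau with Serpine2 and -0.08 for Plaur with Serpine2. These values describe 12 arrays in 6 groups that share slides and cells, and they include the Mkl1 arrays that served to pick the set.

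Among 16695 named genes the profile most like Serpinb2 was that of Lrrfip1 (r = 0.984), followed by Map3k20 (0.976), Slc25a24 (0.976), the histamine receptor gene Hrh1 (0.974) and Tmem171 (0.973). These genes were picked for their likeness, the Mkl1 arrays included. Tmem171 went from -1.78 with EGFP to 0.80 with Mkl1, and Slc25a24 from 4.63 to 5.03. The closest to Plaur were Lrrc59 (0.984) and Fosl1 (0.984), which encodes an AP-1 subunit and went from 1.94 with EGFP to 3.69 with Mkl1, 2.91 with shActb_1 and 3.12 with shActb_2, its EGFP arrays having an SD of 0.53. The closest to Plau were BC003965 (0.989) and the poliovirus receptor gene Pvr (0.979). Dipk1b (0.983) and Bmper (0.973) were closest to Plat, and Gpr162 (0.986) and the cell adhesion gene Nrcam (0.984) to Serpine2.

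**Figure D3:**
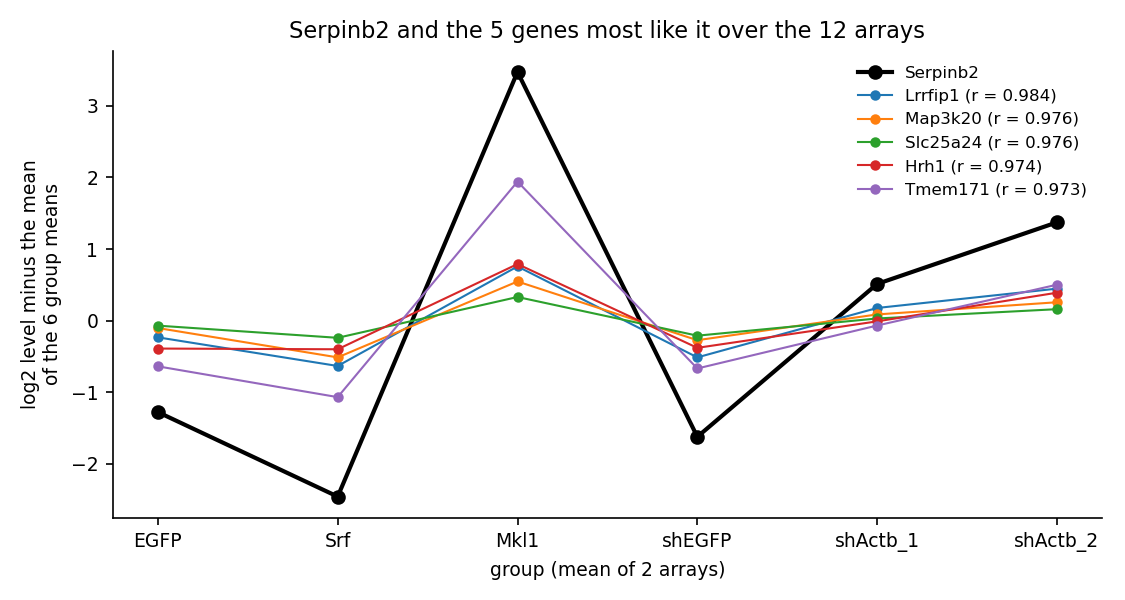
Group means (2 arrays each) of Serpinb2 and the 5 genes with the highest Pearson's r to it over the 12 arrays, each as log2 level minus its own mean over the 6 groups; lines only join the groups of 1 gene. All 6 are highest with Mkl1, a shape fixed by how Serpinb2 and then the other 5 genes were picked.

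Other genes of the plasmin system changed on Srf-labelled arrays and with shActb_1. Of 24 listed genes with a probe, 19 were tested in each comparison. For Srf 2 were higher and 1 lower, with shActb_1 1 was higher and 0 lower, and with shActb_2 0 changed by both thresholds while 6 were higher and 4 lower by adjusted p alone, a rule that 40.3% of probes met. By both thresholds these are 15.8%, 5.3% and 0% of the genes tested, against 5.54%, 1.61% and 6.31% of probes. For Srf, 1 of the 3 called, Lrp2, was well above background on 0 EGFP arrays. It entered the test through the group where it is high, and its bound is under 2-fold, so the share is a description. The list medians were -0.11, -0.06 and 0.05, against -0.04, 0.01 and -0.02 over all probes.

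Cpb2, a carboxypeptidase that removes plasminogen-binding lysines from fibrin, rose 4.18-fold on Srf-labelled arrays (log2 2.06 ± 0.17 SE, adjusted p = 0.000175). Its change was -0.49 with shActb_1 (adjusted p = 0.122) and 0.65 with shActb_2 (adjusted p = 0.0178, under 2-fold), and the hairpins differed by 1.15 (adjusted p = 0.00268). On Srf-labelled arrays Lrp2, an endocytic receptor for protease-inhibitor complexes, was at least 1.83-fold higher (adjusted p = 0.000252), its EGFP arrays not being well above background. Vldlr, another such receptor, fell by 1.09 with 1 probe (adjusted p = 0.0046) and gave -0.90 with the other (adjusted p = 0.0186, under 2-fold). Itgb3, a vitronectin receptor subunit that partners with the urokinase receptor, rose 2.37-fold with shActb_1 by 1 of its 2 probes (log2 1.25, adjusted p = 0.00109; the other probe 0.74, adjusted p = 0.056), and was at -0.32 and -0.39 with shActb_2. Between the hairpins Itgb3 differed by -1.57 and -1.12 on its 2 probes. With Mkl1, in the contrast that chose the set, Cpb2 differed by 1.18 and Itgb3 by 1.19, and Lrp2 was at least 1.95-fold higher. Plg, plasminogen itself, was near background, at -4.65 ± 0.12 (SD, n = 2) with EGFP, and differed by -0.85 on Srf-labelled arrays (adjusted p = 0.422), with 1 of those 2 arrays well above background.

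**Figure D4:**
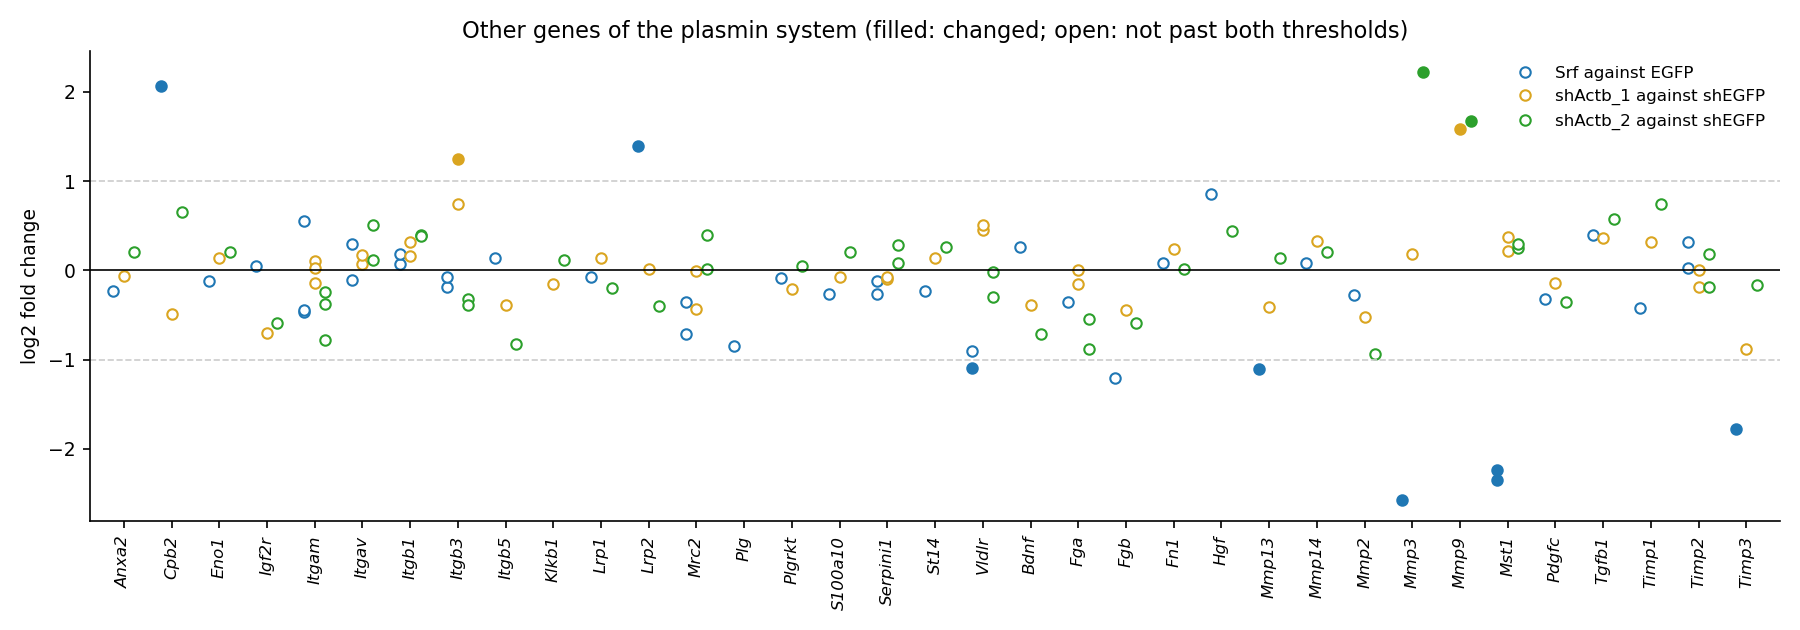
Log2 fold change of tested probes of other plasmin system genes (left block) and of plasmin substrates, growth factors, metalloproteinases and their inhibitors (right block) in 3 comparisons, filled where adjusted p was under 0.05 and the change over 2-fold, with dashed lines at 2-fold. Mmp3 falls by 2.57 on Srf-labelled arrays and rises by 2.22 with shActb_2.

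Among 18 substrates of plasmin, growth factors it can activate, metalloproteinases and their inhibitors, 15 to 16 were tested. For Srf 0 were higher and 4 lower, with shActb_1 1 was higher and 0 lower, and with shActb_2 2 were higher and 0 lower. These are 26.7%, 6.7% and 12.5% of the genes tested, against 5.54%, 1.61% and 6.31% of probes, with medians of -0.32, 0.00 and 0.08. Mmp3, stromelysin-1, fell 5.93-fold on Srf-labelled arrays (log2 -2.57 ± 0.16 SE, adjusted p = 5.11e-05). It rose 4.65-fold with shActb_2 (log2 2.22, adjusted p = 0.000125), where shActb_1 gave 0.18 (adjusted p = 0.6) and the hairpins differed by 2.04 (adjusted p = 0.000272). Mmp9, gelatinase B, rose with both hairpins, by 1.58 with shActb_1 (adjusted p = 0.011) and 1.67 with shActb_2 (adjusted p = 0.00247). On Srf-labelled arrays, Timp3, a metalloproteinase inhibitor, fell by 1.78 (adjusted p = 9.93e-05) and Mmp13, a collagenase, fell by 1.11 (adjusted p = 0.00351). The growth factor gene Mst1 was at least 4.18-fold lower there by 1 probe (adjusted p = 0.000304) and fell by 2.35 with the other (adjusted p = 0.00189), which was above background on 1 of the 2 arrays labelled Srf.

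Of 58 other serpin genes, 32 to 33 were tested in the comparisons below. For Srf 7 were higher and 5 lower, with shActb_1 0 were higher and 2 lower, and with shActb_2 1 was higher and 5 lower. These are 36.4%, 6.1% and 18.2% of the genes tested, against 5.54%, 1.61% and 6.31% of probes, with medians of -0.14, -0.04 and -0.39. Between the hairpins 4 were higher with shActb_2 and 3 lower, 21.9% of those tested against 5.03% of probes. These shares include serpins whose called probes were well above background on 0 arrays of 1 group, which entered the test through the group where they are high: 6 of the 12 called for Srf, 5 of them among the 7 higher, 1 of 2 with shActb_1, 4 of 6 with shActb_2 and 1 of 7 between the hairpins. The shares are therefore a description. Of 17 serpins called in at least 1 comparison with a control, the 10 with the largest fitted changes follow. The fitted values include probes with only a bound in 1 group, so the order is not one of measured folds, and close paralogs may share probes. Serpinb1b was at least 3.44-fold higher on Srf-labelled arrays (adjusted p = 0.000948). Its relative Serpinb1a, which inhibits neutrophil proteases, fell 2.09-fold there (log2 -1.06, adjusted p = 0.000754) and 3.24-fold with shActb_1 (log2 -1.69, adjusted p = 0.000317), and was at -0.21 with shActb_2 (adjusted p = 0.205).

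Serpinb1c fell in all 3 comparisons, by at least 1.44-fold on Srf-labelled arrays (adjusted p = 0.0112), at least 3.53-fold with shActb_1 (adjusted p = 0.0127) and at least 4.12-fold with shActb_2 (adjusted p = 0.000638). Serpinb6d fell 3.6-fold with shActb_2 (log2 -1.85, adjusted p = 5.69e-05), where shActb_1 gave 0.28 (adjusted p = 0.147), and the hairpins differed by -2.13 (adjusted p = 9.09e-05). On Srf-labelled arrays, the granzyme inhibitor relatives Serpinb9e, Serpinb9f and Serpinb9g were higher, by at least 2.61-fold and 2.03-fold on the 2 probes of Serpinb9e, at least 2.68-fold for Serpinb9f and at least 1.94-fold for Serpinb9g. Serpinb11 was at least 2.46-fold higher with shActb_2 (adjusted p = 0.000564) and Serpina3f at least 2.75-fold lower (adjusted p = 0.0197). The 2 probes of Serpina3i disagreed on Srf-labelled arrays, one at least 2.05-fold higher (adjusted p = 0.00638) and the other at -0.76 (adjusted p = 0.0394).

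**Figure D5:**
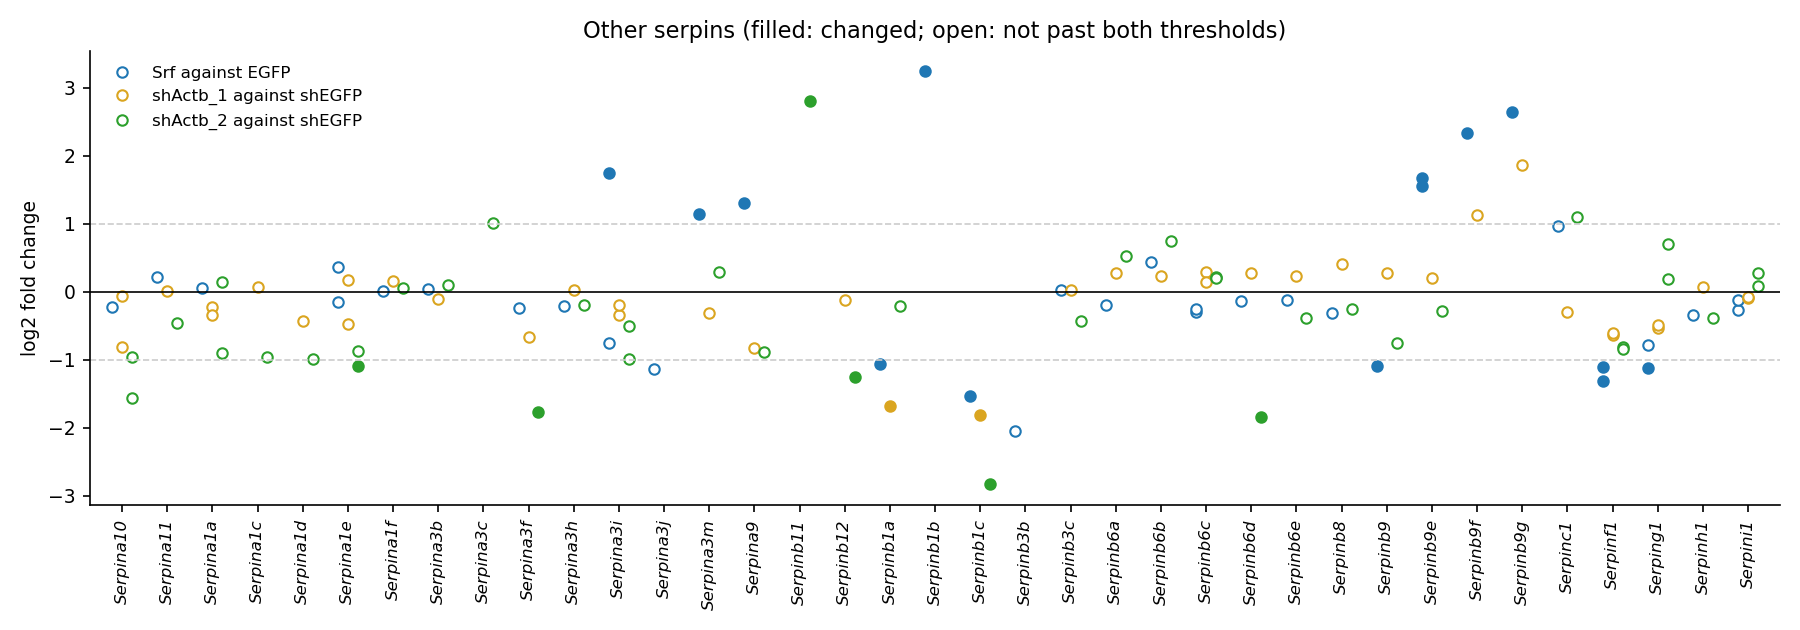
Log2 fold change of tested probes of other serpin genes in 3 comparisons, filled where adjusted p was under 0.05 and the change over 2-fold, with dashed lines at 2-fold. Fitted values of probes that are not well above background in 1 group, such as Serpinb1b at 3.24, are plotted as fitted, and only their bound is a measured fold.

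Markers of other cell types that can express these genes moved with some of the results. The summed level of 7 mesenchymal and smooth muscle markers, Acta2 among them, in multiples of the array's 75th percentile, was 100.5 to 102.3 with EGFP, 149.5 to 166.0 with Mkl1 and 63.1 to 63.8 on Srf-labelled arrays. It was 85.9 to 94.8 with shEGFP, 117.3 to 128.1 with shActb_1 and 133.8 to 134.7 with shActb_2. The sum is carried by the brightest probes, and the markers did not move as one. On Srf-labelled arrays 3 of 7 rose (Acta2, Thy1 and Myh11) and 1 fell (Col1a2), 57.1% against 5.54% of probes, with a median change of 0.44. With Mkl1 3 were past 2-fold higher and 1 lower (57.1% against 4.76% of probes, median -0.24). With shActb_1 2 of 6 rose and 1 fell (50% against 1.61%, median -0.15), and with shActb_2 3 of 7 rose and 1 fell (57.1% against 6.31%, median 0.81). Myh11, counted as higher for Srf, Mkl1 and shActb_2, was well above background on 0 control arrays. The 7 macrophage and microglia markers, of which 5 were above background on all 12 arrays, summed to 6.82 to 7.37 on Srf-labelled arrays against 3.51 to 4.07 with EGFP and 4.84 to 5.01 with Mkl1, and to 3.27 to 3.80 over shEGFP and both hairpins. Of 6 tested, Csf1r (by 2 of its 3 probes) and Cd68 rose and Aif1 fell on Srf-labelled arrays (50% against 5.54% of probes), with a median change of 0.00. With Mkl1 0 were past 2-fold higher and 1 lower (16.7% against 4.76%, median -0.27). With shActb_2 0 rose and 2 fell (33.3% against 6.31%, median -0.42), and with shActb_1 0 rose and 0 fell (median -0.22). The 5 embryonic stem cell markers summed to 2.97 to 3.43 on Srf-labelled arrays and 1.01 to 1.17 with EGFP, and of these Esrrb alone passed both thresholds (log2 2.53, adjusted p = 1.63e-05), with a median change of 0.12. The 6 neuron markers summed to 9.60 to 10.45 in the controls and 4.74 to 6.49 in the other groups. On Srf-labelled arrays 1 of 5 tested rose and 1 fell (40.0% against 5.54% of probes, median -0.83), and with Mkl1 0 were past 2-fold higher and 2 lower (40.0% against 4.76%, median -0.67). With each hairpin 0 of 6 rose and 2 fell (33.3% against 1.61% for shActb_1 and 6.31% for shActb_2, medians -0.59 and -0.72). Of 5 endothelial markers Cdh5, Tek and Emcn were above background on 0 arrays, and the other 2, Pecam1 and Kdr, on all 12. The 5 summed to between 5.3 (Mkl1) and 9.3 (shEGFP). The part of any of these in the results was not tested, and in bulk RNA fewer cells of a type and less RNA per cell cannot be told apart.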

How the data were processed

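RNA of the 12 samples was hybridised to 1-colour Agilent arrays. Each held 62976 spots, as in the product of the study's methods, whereas the labels name another product. The authors read the scans with Feature Extraction (11.5.1.1 per the file headers) and deposited a background-subtracted processed signal intensity per spot, besides median spot and background intensities. The log2 table they also deposited differed from the values below by a constant per array.

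Outlier-flagged and control spots were dropped, log2 signals were averaged per probe, and the 75th percentile of each array (signal 843.0 to 1149.5) was subtracted. Accessions were matched to RefSeq symbols, naming 28026 of 55681 probes (50.3%). The 2 arrays per group limit the precision. All 12 arrays were fitted with limma 3.58.1 in R 4.3.3, with 1 mean per group, two-sided, and Benjamini-Hochberg adjustment over the probes that exceeded background on both arrays of either compared group. The fit was tested on simulated data. The members, lists and rules were chosen with earlier results of these data known. Named genes were the members, the genes of each list called against a control (at most 10, by size) and the genes most correlated with each member. Alternatives were normexp (offset 50, on median signals, the mean not being in the files used), quantile normalization, the deposited table, other filters and thresholds, outlier spots kept, only the compared arrays, only the arrays of 1 slide, a variance trend with robust estimation, a replicate block and each array left out. One gene of the lists is counted but not reported here.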

Additional observations from a re-analysis of the deposited data

Results flagged for a closer look

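The effects of the 2 Actb hairpins differed for 3 genes when shActb_2 was tested against shActb_1 with limma, by an adjusted p under 0.05 that 32.1% of probes met. The log2 difference was 0.551 for Plat, 0.963 for Serpine2 and 0.86 for Serpinb2, each higher on both shActb_2 arrays than on both shActb_1 arrays, and none passed 2-fold. After normexp the Serpine2 difference was 0.34, and without shActb_1 replicate 1 the Serpinb2 difference was 0.55 (adjusted p = 0.0668). The adjusted p also exceeded 0.05 for Plat without shActb_2 replicate 2 (0.055) and for Serpinb2 without either shActb_2 array (0.0527 and 0.0821) and with only the compared arrays (0.0789). The shActb_2 arrays were on a slide of their own and in another row than the shActb_1 arrays, so slide, row and hairpin cannot be told apart.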

How the results depend on the processing

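Over 24 alternatives, 570 values of the 5 genes were recomputed, and 553 kept their direction and their side of both thresholds together or, in the untested Mkl1 contrast, moved by less than the spread between replicates. The direction was reversed in 0. Leaving out an array outside a comparison, or changing the filter, thresholds, block or variance model, left its log2 changes as they were by construction. A reversal was possible only with normexp, quantile normalization, the deposited table, outlier spots kept or a compared array left out. By adjusted p alone the count of changed genes was 5 on Srf-labelled arrays, 3 with shActb_1 and 3 between the hairpins, rules that 25.5%, 9.41% and 32.1% of probes met. Requiring probes well above background on all 12 arrays removes Serpinb2 by construction. It left 2 changed genes on Srf-labelled arrays, 0 with shActb_1 and 1 with shActb_2. With single arrays left out the count between the hairpins ranged from 0 to 1, with Serpine2 past 2-fold without shActb_1 replicate 1 (1.13) or shActb_2 replicate 2 (1.15) and Serpinb2 without shActb_1 replicate 2 (1.17). Serpinb2 on Srf-labelled arrays lost its call with normexp (-0.36) and with quantile normalization (-0.94). In the Mkl1 contrast normexp gave 3.24 for Serpinb2 and -0.34 for Serpine2, and quantile normalization gave 5.11 for Serpinb2. Normexp also gave Serpine2 1.80 on Srf-labelled arrays and 0.22 with shActb_2 (adjusted p = 0.119). The cause was not tested.

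Replicate numbers were not taken to pair the arrays. Correlations of deviations between groups ran from -0.138 (EGFP with shActb_1) to 0.261 (EGFP with Srf), and 0.235 was that of shEGFP with shActb_2. With the replicate number as a block the counts were 3 on Srf-labelled arrays, 1 with shActb_1, 2 with shActb_2, 0 between the hairpins and 3 past 2-fold with Mkl1, as without it. By adjusted p alone the block brought Plau under 0.05 with shActb_1 (0.0108) and shActb_2 (0.0253). A fit on the arrays of 1 slide could not be had for the shActb_2 comparisons. Signal over background limits Serpinb2 on Srf-labelled arrays to a bound.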
